A study of Homo sapiens with 12 samples.

Results

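The genes described here are 51 G2/M and mitotic spindle genes, taken as a list of symbols by their known role in cell division: CDK1 and its cyclins, the other mitotic kinases, the spindle checkpoint, the kinetochore, the kinesins, spindle proteins and the condensins. No measured value entered the rule. All 51 of the 51 were measured, among 11963 genes tested, each read by 1 probe set, the one whose mean over the 12 arrays was highest. The cells were K562, an established human line from chronic myeloid leukaemia in blast crisis that the labels call an AML line, and each sample was hybridised to 1 Affymetrix 3' expression array. In all, 4 groups of 3 arrays were compared. The CXXC5 overexpression group carried human CXXC5 in the pEGFP-C2 vector, and its control, the empty vector group, carried pEGFP-C2 alone; both were introduced by nucleofection, which is transient. The CXXC5 knockdown group carried shRNA against CXXC5 and its control a scrambled shRNA, both in lentiviral pLKO vectors, with stable infection. A pair of CXXC5 shRNA clones is named in the labels without saying which sample had which. Cells of all 4 groups were in serum-free medium with Wnt3a at 100 ng/ml, and RNA was taken after 8 h. CXXC5 itself has no probe set among those used here, which left the labels unchecked against the targeted gene, and the groups are called by their labels. Whether the replicates were separate cultures is not stated in the labels; the p-values therefore rest on the spread between the deposited samples, and that spread may be technical.

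Entry into mitosis is driven by the kinase CDK1 bound to cyclin B, which the CDC25 phosphatases switch on. The spindle checkpoint holds cells in metaphase until every kinetochore is attached, and the anaphase-promoting complex (APC/C) with its activator CDC20 then marks cyclin B and securin (PTTG1) for destruction. Most of these genes are transcribed late in the cell cycle. Their promoters are known for CHR elements (cell cycle genes homology regions), bound by MuvB complexes with B-MYB or with p130 and E2F4, and for CCAAT boxes, bound by NF-Y. CXXC5 is a zinc finger protein that binds CpG-rich DNA and inhibits Wnt signalling through Dishevelled.

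Promoters, from 250 bases before to 50 bases from the gene start on, were matched by symbol in RefSeq (GRCh38.p14) for 43 of the 51 genes. Those of FOXM1, AURKA, BIRC5, TTK, BUB3, UBE2C, TPX2 and RACGAP1 were not used here. The CHR letters TTTGAA or TTCGAA were found on either strand in 31 of 43 promoters, or 72.1%, against 16.6% of all 27305 promoters of that length. CCAAT, on either strand, was found in 33, or 76.7%, against 35.7%, and both motifs in 26, or 60.5%, against 6.58%. The median promoter of these genes held 26 CpG dinucleotides, against 14 over all promoters, and had 61.7% G and C, against 58.3%. The windows shown are those of the genes on which the comparisons turned most: CCNB1, CDC20 and BUB1, which were higher in knockdown than in scrambled shRNA arrays, and CDKN3 and PTTG1, which had the largest positive differences between the control groups among genes that passed there. Sequences run 5′ to 3′ on the gene's strand. Capitals mark CHR and CCAAT letters in either orientation.
CCNB1, chr5:69166900-69167199, plus strand: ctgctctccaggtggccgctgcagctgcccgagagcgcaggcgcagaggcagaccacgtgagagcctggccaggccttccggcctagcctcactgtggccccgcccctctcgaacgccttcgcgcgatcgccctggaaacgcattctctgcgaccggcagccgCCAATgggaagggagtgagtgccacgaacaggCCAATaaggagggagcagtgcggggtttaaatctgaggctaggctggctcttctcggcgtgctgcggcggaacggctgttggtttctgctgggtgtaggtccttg
CDC20, chr1:43358731-43359030, plus strand: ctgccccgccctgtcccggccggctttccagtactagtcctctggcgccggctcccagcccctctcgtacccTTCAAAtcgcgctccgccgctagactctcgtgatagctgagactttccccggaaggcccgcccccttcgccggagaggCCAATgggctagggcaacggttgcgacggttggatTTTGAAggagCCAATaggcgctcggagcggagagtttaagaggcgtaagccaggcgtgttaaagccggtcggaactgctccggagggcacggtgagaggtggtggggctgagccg
BUB1, chr2:110678014-110678313, minus strand: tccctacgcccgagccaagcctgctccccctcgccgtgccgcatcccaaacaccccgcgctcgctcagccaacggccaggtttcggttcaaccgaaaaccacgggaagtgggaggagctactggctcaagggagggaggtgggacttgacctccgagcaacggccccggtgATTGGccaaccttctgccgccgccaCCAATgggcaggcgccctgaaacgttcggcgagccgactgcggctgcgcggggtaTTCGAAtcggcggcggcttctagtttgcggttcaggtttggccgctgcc
CDKN3, chr14:54396757-54397056, plus strand: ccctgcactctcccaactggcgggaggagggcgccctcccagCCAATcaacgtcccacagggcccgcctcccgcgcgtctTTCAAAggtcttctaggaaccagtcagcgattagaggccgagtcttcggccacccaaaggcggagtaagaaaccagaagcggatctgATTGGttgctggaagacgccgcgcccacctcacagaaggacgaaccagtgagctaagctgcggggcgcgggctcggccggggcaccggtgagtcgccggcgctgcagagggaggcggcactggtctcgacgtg
PTTG1, chr5:160421605-160421904, plus strand: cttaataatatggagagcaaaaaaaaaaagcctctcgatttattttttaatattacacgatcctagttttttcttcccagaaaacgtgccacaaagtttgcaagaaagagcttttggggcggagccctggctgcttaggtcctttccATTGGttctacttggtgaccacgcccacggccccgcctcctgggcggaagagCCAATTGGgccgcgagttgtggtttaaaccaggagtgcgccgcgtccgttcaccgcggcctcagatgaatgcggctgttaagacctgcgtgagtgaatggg
All 5 windows held 2 CCAAT boxes or more, counting both strands, and in PTTG1 a pair of them overlapped. CDC20 held a pair of CHR motifs, BUB1 and CDKN3 held 1 each, and the windows of CCNB1 and PTTG1 held none of the letters searched for. A match describes the letters and does not show that a factor binds there.

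Values are log2 expression values, so a difference of 1 is a doubling. They lay between 2.07 and 14.4, with array medians of 6.65 to 6.71 over all probe sets. Replicates of a group correlated at 0.996 to 0.998. Scrambled shRNA replicate 3 stood apart in the GAPDH control probe sets, where the 3' minus 5' difference, a sign of RNA or labelling quality, was 0.87, against 0.227 to 0.335 in the other 11 arrays. For the ACTB control probe sets this difference was 2.57 in that array and 1.954 to 2.27 in the others, so it was large in all arrays. The standard deviation of the 51 genes' deviations from their own means was 0.204 in that array and 0.078 to 0.131 in the others. Of 10 K562 markers, 7 were measured, at the 76.7th to 99.3rd percentile of all genes, and their mean ran from 10.93 to 10.94 in knockdown arrays and from 11.02 to 11.06 in scrambled shRNA arrays, and from 10.78 to 10.83 in overexpression arrays and from 10.82 to 10.89 in empty vector arrays. These means join markers that moved in opposite directions. With knockdown the globins HBZ (-0.44) and HBE1 (-0.56) and the transferrin receptor TFRC (-0.43) fell and the erythroid factor GATA1 rose by 0.47. Scrambled shRNA against empty vector had 4 of the 7 higher and 2 lower, with HBZ at 0.82 and GATA1 at -0.60, and overexpression had 2 that rose and 1 that fell. Of the markers of other cells, the monocyte list's mean was 6.94 to 6.99 with overexpression and 6.76 to 6.83 with empty vector, while the lymphoid list's was 6.28 to 6.33 and 6.18 to 6.27 in the same groups. In these 2 lists LYZ (0.25) and CD3D (0.38) passed with overexpression, while CD14 (-0.03), CD2 (-0.07) and CD79A (-0.10) were lower. The lists of other cells were not low throughout, since the epithelial markers reached the 93.4th percentile and the lymphoid markers the 91.4th. These are bulk samples, in which more RNA of a mitotic gene per cell and a larger share of cells in G2 or M cannot be told apart.

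The 51 genes varied less between arrays, at the median, than all genes did. Their median standard deviation within groups was 0.069, against 0.111 over all genes, and their median range over the 12 arrays was 0.36, against 0.50. The single ranges ran between 0.157 and 0.789. Apart from UBE2C, at 5.95 to 6.41, the genes lay above the array medians of 6.65 to 6.71. All genes were not matched to them in level, and the part of level in the smaller spread was not tested.

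**Figure D1:**
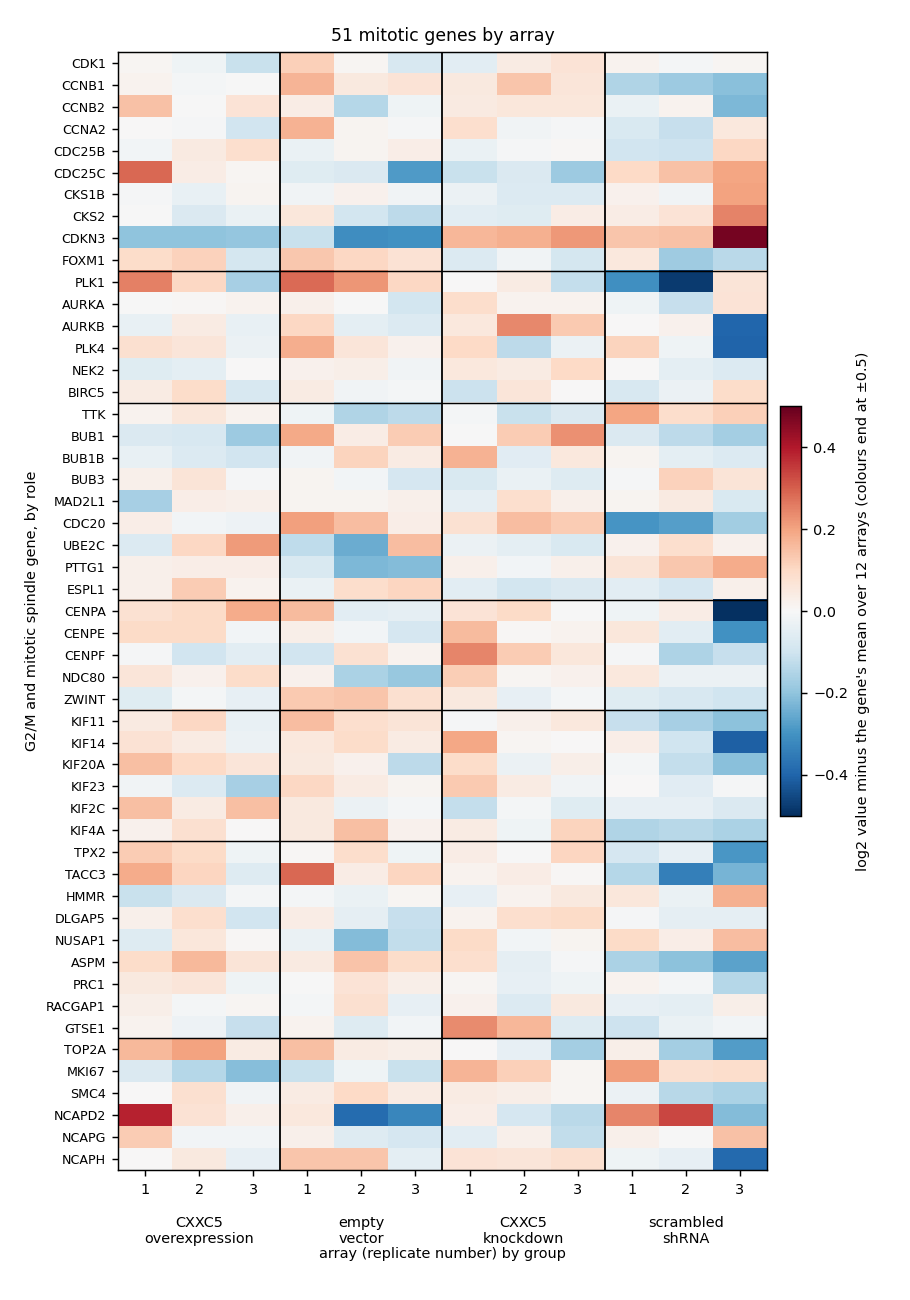
Deviation of each of the 51 genes from its own mean over 12 arrays, in log2 units, with genes as rows grouped by role and arrays as columns in the order overexpression, empty vector, knockdown, scrambled shRNA. The scrambled shRNA replicate 3 column shows the widest spread, with a standard deviation of 0.204 against 0.078 to 0.131 in the other arrays.

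With CXXC5 overexpression, 0 of the 51 genes rose and 0 fell against empty vector by limma at an adjusted p under 0.05. Over all genes 6.98% passed in this comparison, 3.61% higher and 3.37% lower. At an unadjusted p under 0.05 there were 7 genes, or 13.7%, against 20.4% of all genes. The median change was -0.004, against 0.001 over all genes, and single changes ran between -0.23 and 0.38. The 95% intervals reached from -0.43 to 0.71 at the widest, with a median half-width of 0.14. The arrays did not overlap in 11 genes, 5 higher and 6 lower, while over all genes 12.6% were separated upward and 15.3% downward, or 27.9% either way. Alternatives in the processing called 1 to 3 members in some settings, most often PTTG1, which passed in 6 of 14, among them without empty vector replicate 1 (0.25; adjusted p = 0.0403).

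With CXXC5 knockdown, 6 genes rose and 1 fell against scrambled shRNA. Those that rose were CDC20, CCNB1, BUB1, CENPF, ASPM and KIF4A, a set with an APC/C activator, a cyclin, a checkpoint kinase, a kinetochore protein, a spindle pole protein and a kinesin, and TTK, the kinase MPS1, fell. Together this is 13.7% of the genes, against 14.0% of all genes tested (8.79% rose and 5.22% fell). The median change was 0.07, against -0.009 over all genes. The arrays did not overlap in 22 genes, 16 higher and 6 lower, against 18.2% and 14.2% of all genes, or 32.4% either way. After each array was centred on its median the counts were 2 and 2 and the median 0.031. The count of rises was 2 without scrambled shRNA replicate 2 or 3 and 3 without knockdown replicate 1 or 2, and the count of falls was 0 whichever of the 6 arrays was left out.

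More of the genes passed between the 2 control groups than in the overexpression or knockdown comparison. In scrambled shRNA against empty vector arrays, 6 genes were higher (CDKN3, PTTG1, CDC25C, TTK, NUSAP1 and MKI67) and 10 lower (PLK1, TACC3, CDC20, ASPM, CCNB1, KIF11, BUB1, KIF4A, ZWINT and SMC4). That is 31.4% of the genes, against 31.5% of all genes, 16.2% higher and 15.3% lower. The arrays did not overlap in 21 genes, 6 higher and 15 lower, against 23.8% and 21.9% of all genes, or 45.7% either way. The median difference was -0.071, against 0.017 over all genes, and became -0.032 after each array was centred on its median. Delivery method, vector and handling cannot be told apart in this comparison. It shares the scrambled shRNA arrays with the knockdown comparison, with the opposite sign, so the changes are given side by side for each gene. The count of higher genes was 3 without empty vector replicate 3, and that of lower genes 6 without empty vector replicate 2.

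Knockdown arrays set against empty vector arrays gave 1 gene that rose, CDKN3, and 0 that fell, with 6 at an unadjusted p under 0.05, or 11.8%, against 22.9% of all genes. Over all genes 4.54% passed, 3.02% higher and 1.52% lower. The arrays did not overlap in 6 genes upward and 9 downward, against 17.5% and 12.5% of all genes, or 30.0% either way. The median difference was 0.004. This comparison shares arrays with those above.

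**Figure D2:**
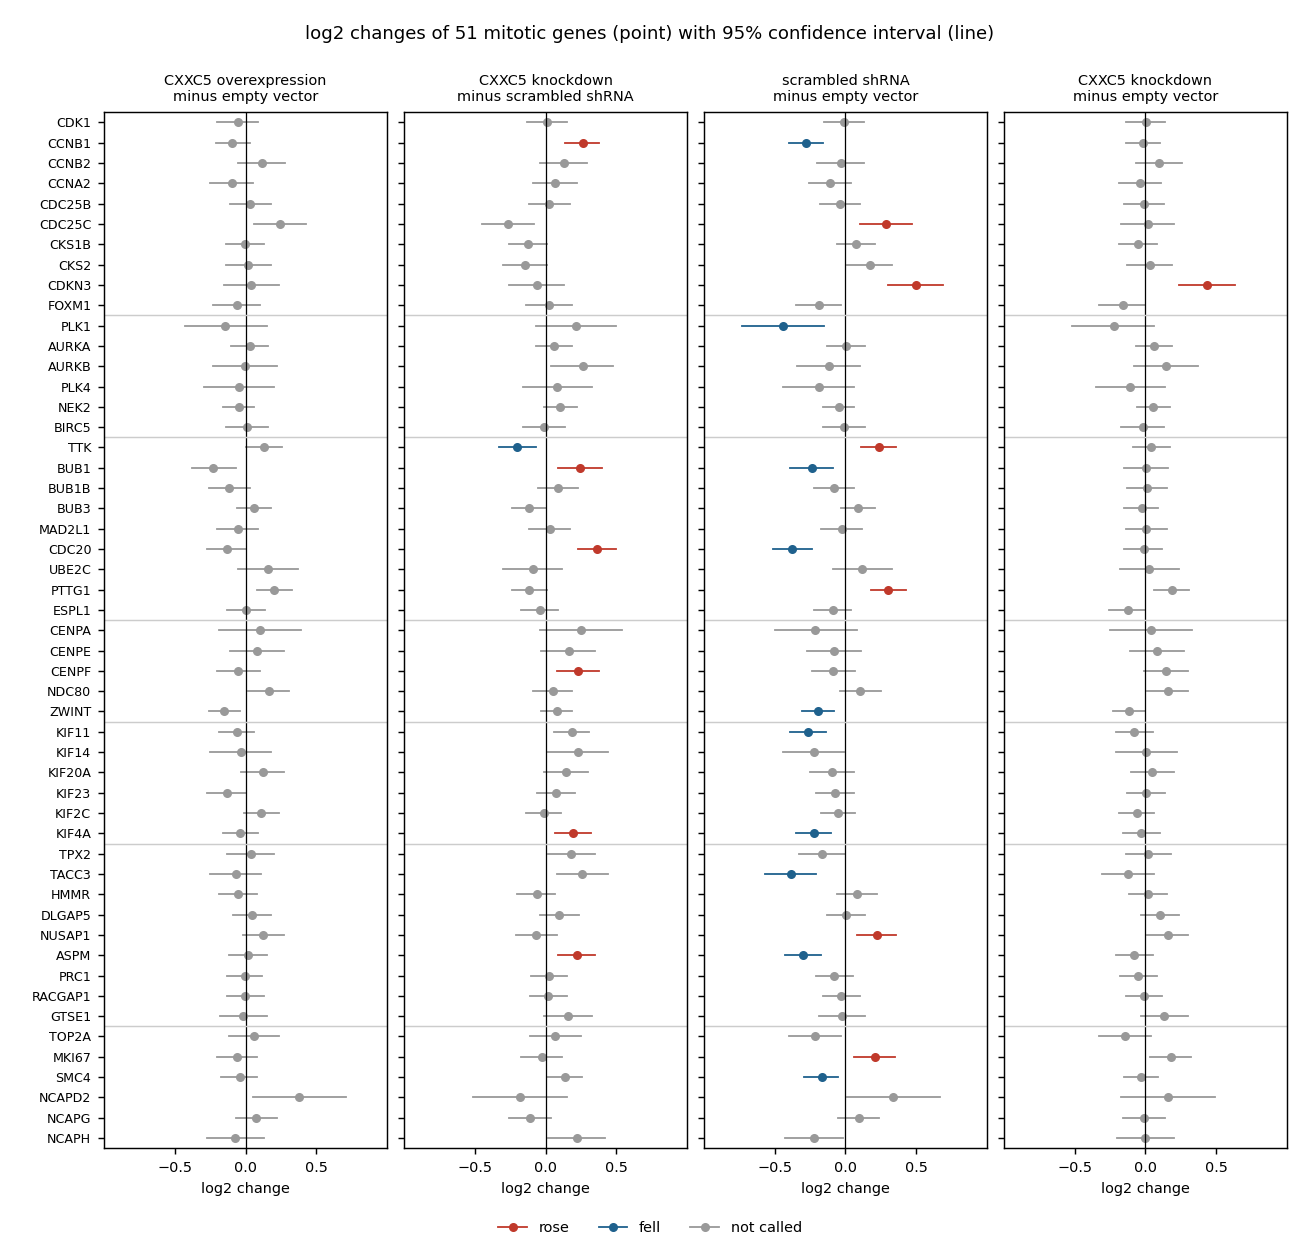
Log2 change of each of the 51 genes with its 95% interval, in 4 panels for the 4 comparisons, with genes as rows grouped by role. Red points rose, blue points fell and grey points did not pass: 0 are coloured for overexpression, 7 for knockdown, 16 between the controls and 1 for knockdown against empty vector.

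Among CDK1, its cyclins and their control, cyclin B1 was the gene that passed with knockdown, 1 of 10, against 14.0% of all genes. CCNB1, the partner that activates CDK1, was at 11.34, 11.43 and 11.35 in knockdown arrays, against 11.14, 11.11 and 11.08 in scrambled shRNA arrays. It was at 11.31, 11.28 and 11.29 in overexpression arrays, against 11.46, 11.34 and 11.36 in empty vector arrays. Every knockdown array was above every scrambled shRNA array, and every overexpression array was below every empty vector array. The knockdown change was 0.26 (SE 0.0551; limma adjusted p = 0.00753), a fold of 1.2, and it held in all 14 alternatives. The overexpression change, -0.09, did not pass (adjusted p = 0.397), and scrambled shRNA was lower than empty vector by 0.28 (adjusted p = 0.00271). CDC25C, a phosphatase that activates CDK1, was at 8.52, 8.27 and 8.24 in overexpression arrays, against 8.17, 8.16 and 7.95 in empty vector arrays. It was at 8.12, 8.16 and 8.05 in knockdown arrays, against 8.33, 8.38 and 8.43 in scrambled shRNA arrays. Both pairs of groups were apart, upward with overexpression and downward with knockdown. Neither change passed: 0.25 with overexpression (adjusted p = 0.11) and -0.27 with knockdown (adjusted p = 0.055). Between the controls it was higher by 0.28 in scrambled shRNA (adjusted p = 0.0231), a call lost without empty vector replicate 3 or scrambled shRNA replicate 2 or 3, at 0.21 to 0.28. With the mean of all its probe sets that difference was 0.02. CDKN3, a phosphatase that removes the activating phosphate of CDKs, was at 10.26, 10.27 and 10.31 in knockdown arrays and 10.23, 10.24 and 10.57 in scrambled shRNA arrays. It was at 9.89, 9.89 and 9.9 in overexpression arrays and 9.98, 9.78 and 9.79 in empty vector arrays. All 6 lentiviral arrays lay above all 6 nucleofected ones, and within each pair the arrays overlapped. It was higher than in empty vector by 0.50 in scrambled shRNA (adjusted p = 0.00158) and by 0.43 in knockdown (SE 0.0891; adjusted p = 0.022); the second call was lost without empty vector replicate 2 or 3 or knockdown replicate 2 or 3, at 0.40 to 0.44. The other 7 genes passed in none of the 4 comparisons: CDK1, the cyclins CCNB2 and CCNA2, the phosphatase CDC25B, the CDK-binding CKS1B and CKS2, and FOXM1, a transcription factor of mitotic genes. Over the 10 genes, overexpression changes ran between -0.10 and 0.25, and knockdown changes between -0.27 and 0.26. CDK1 itself was at 11.75, 11.84 and 11.87 in knockdown arrays and 11.82, 11.79 and 11.81 in scrambled shRNA arrays, which overlapped.

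Of the other mitotic kinases and survivin (PLK1, AURKA, AURKB, PLK4, NEK2 and BIRC5), 0 passed in the overexpression or knockdown comparison. At an unadjusted p under 0.05 there were 0 of 6 with overexpression, against 20.4% of all genes, and 1 of 6 with knockdown, against 28.1% of all genes. PLK1, the kinase that promotes CDK1 activation and spindle assembly, was at 8.64, 8.68 and 8.52 in knockdown arrays, against 8.33, 8.16 and 8.7 in scrambled shRNA arrays. It was at 8.89, 8.74 and 8.47 in overexpression arrays, against 8.92, 8.86 and 8.74 in empty vector arrays. The arrays overlapped in both pairs, and scrambled shRNA replicate 3 was the highest of its group. Scrambled shRNA arrays lay below the empty vector arrays on average, by 0.44 (adjusted p = 0.0245). That call was lost without empty vector replicate 1 or 2 or scrambled shRNA replicate 1 or 2, with differences of -0.43 to -0.32. AURKB, the kinase of the chromosomal passenger complex, was at 9.27, 9.46 and 9.35 in knockdown arrays and 9.22, 9.24 and 8.82 in scrambled shRNA arrays. Here scrambled shRNA replicate 3 was the lowest of its group, and the groups did not overlap. The change of 0.26 did not pass (adjusted p = 0.114) and was 0.13 without that array (adjusted p = 0.365). AURKA, a centrosome kinase, PLK4, which drives centriole duplication, NEK2, which separates centrosomes, and BIRC5, survivin of the passenger complex, passed in none of the 4 comparisons. The 6 genes had overexpression changes between -0.14 and 0.03 and knockdown changes between -0.01 and 0.26.

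The spindle checkpoint and anaphase genes held the largest knockdown change. CDC20, which activates the APC/C, was at 10.8, 10.88 and 10.85 in knockdown arrays, against 10.43, 10.45 and 10.55 in scrambled shRNA arrays. It was at 10.76, 10.71 and 10.7 in overexpression arrays, against 10.93, 10.88 and 10.76 in empty vector arrays. Each knockdown array lay above each scrambled shRNA array, and the overexpression arrays lay at or below the lowest empty vector array. It rose by 0.36 with knockdown (SE 0.0616; adjusted p = 0.0023), a fold of 1.29, and this held in all 14 alternatives. The overexpression change was -0.13 (adjusted p = 0.246), and scrambled shRNA was lower than empty vector by 0.38 (adjusted p = 0.00088). BUB1, a checkpoint kinase that recruits the other checkpoint proteins to kinetochores, was at 11.23, 11.36 and 11.46 in knockdown arrays, against 11.16, 11.1 and 11.06 in scrambled shRNA arrays. It was at 11.16, 11.15 and 11.05 in overexpression arrays, against 11.42, 11.27 and 11.36 in empty vector arrays. The knockdown arrays were all higher and the overexpression arrays all lower than their controls. It rose by 0.24 with knockdown (adjusted p = 0.0381). The call was lost without knockdown replicate 2 or 3 or scrambled shRNA replicate 2 or 3, with changes of 0.19 to 0.24 (adjusted p of 0.0926 to 0.143). It changed by -0.23 with overexpression, which did not pass (adjusted p = 0.079), and scrambled shRNA was below empty vector by 0.24 (adjusted p = 0.0221), a call lost without empty vector replicate 1 or 3 or scrambled shRNA replicate 2 or 3. TTK, the kinase MPS1 that starts checkpoint signalling, was at 9.99, 9.89 and 9.93 in knockdown arrays, against 10.2, 10.09 and 10.12 in scrambled shRNA arrays. It was at 10.02, 10.06 and 10.02 in overexpression arrays, against 9.98, 9.85 and 9.87 in empty vector arrays. The knockdown arrays were all lower and the overexpression arrays all higher than their controls. The fall with knockdown was -0.20 (adjusted p = 0.0434). This call was lost whichever of the 6 arrays was left out, with changes of -0.22 to -0.16 (adjusted p of 0.0557 to 0.127). It was higher in scrambled shRNA than in empty vector by 0.24 (adjusted p = 0.0101). PTTG1, securin, which restrains separase until anaphase, was at 12.22, 12.23 and 12.23 in overexpression arrays, against 12.12, 11.97 and 11.98 in empty vector arrays. It was at 12.22, 12.18 and 12.22 in knockdown arrays, against 12.26, 12.33 and 12.38 in scrambled shRNA arrays. Both pairs were apart, upward with overexpression and downward with knockdown. The overexpression change of 0.20 just missed the threshold (adjusted p = 0.0589), the knockdown change of -0.11 did not pass (adjusted p = 0.227), and between the controls it was 0.30 higher in scrambled shRNA (adjusted p = 0.00238). The checkpoint proteins BUB1B, BUB3 and MAD2L1, the APC/C's ubiquitin-conjugating enzyme UBE2C and separase, ESPL1, passed in none of the 4 comparisons. The 9 genes had overexpression changes between -0.23 and 0.20 and knockdown changes between -0.20 and 0.36.

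**Figure D3:**
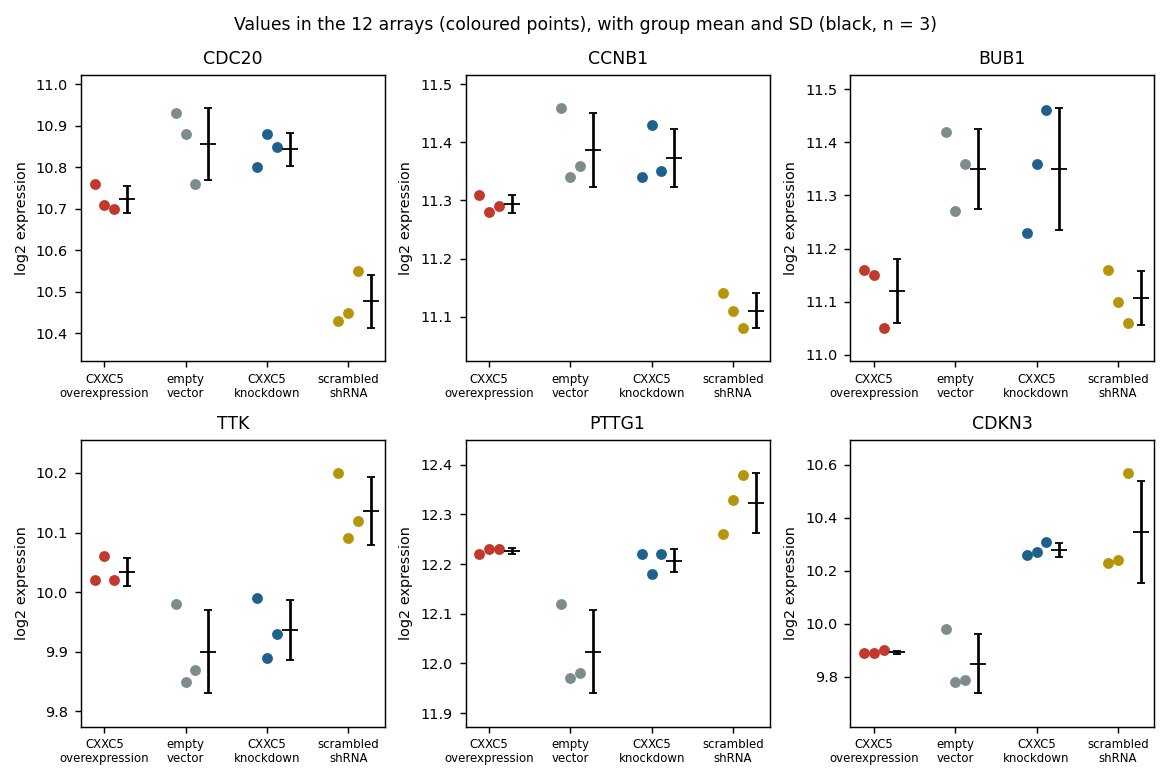
Log2 value of 6 of the genes in each of the 12 arrays, with groups on the horizontal axis in the order overexpression, empty vector, knockdown, scrambled shRNA; coloured points are arrays, and black marks are group means with standard deviations (n = 3). All scrambled shRNA arrays of CCNB1 and CDC20 lie below those of the other groups, and CDKN3 is higher in all 6 lentiviral arrays than in the 6 nucleofected ones.

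At the kinetochore, CENPF, a large protein of the outer kinetochore, was at 10.41, 10.29 and 10.22 in knockdown arrays, against 10.16, 10.01 and 10.05 in scrambled shRNA arrays. It was at 10.16, 10.07 and 10.11 in overexpression arrays and 10.07, 10.24 and 10.18 in empty vector arrays. The knockdown arrays were all above the scrambled shRNA arrays, and the other pair overlapped. It rose by 0.23 with knockdown (adjusted p = 0.048). Its call was lost without knockdown replicate 1 or 2 or scrambled shRNA replicate 2 or 3, with changes of 0.18 to 0.24 (adjusted p of 0.0937 to 0.174). ZWINT, which links the KNL1 complex to checkpoint proteins, was at 11.54, 11.59 and 11.56 in overexpression arrays, against 11.73, 11.74 and 11.68 in empty vector arrays. It was at 11.65, 11.56 and 11.59 in knockdown arrays, against 11.54, 11.52 and 11.5 in scrambled shRNA arrays. It was lower in all overexpression arrays and higher in all knockdown arrays than in their controls, with changes of -0.15 (adjusted p = 0.107) and 0.08 (adjusted p = 0.35) that did not pass. Scrambled shRNA was lower than empty vector by 0.20 (adjusted p = 0.013), and the difference was -0.18 without empty vector replicate 2 (adjusted p = 0.0516). CENPA, the kinetochore motor CENPE and NDC80, which binds microtubules, passed in none of the 4 comparisons. The 5 genes had overexpression changes between -0.15 and 0.16 and knockdown changes between 0.05 and 0.25. CENPA, the histone variant of the centromere, was at 8.93, 8.99 and 8.36 in scrambled shRNA arrays, so that replicate 3 lay well below the other arrays of its group. Its knockdown change of 0.25 was 0.05 without that array.

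Among the kinesins, KIF4A, a chromosome-bound motor, was at 9.73, 9.67 and 9.8 in knockdown arrays, against 9.54, 9.55 and 9.53 in scrambled shRNA arrays. It was at 9.71, 9.77 and 9.69 in overexpression arrays and 9.74, 9.84 and 9.71 in empty vector arrays, which overlapped. It rose by 0.19 with knockdown (adjusted p = 0.0449). It did not pass whichever of the 6 arrays was left out, with changes of 0.16 to 0.22 (adjusted p of 0.051 to 0.16). It was lower by 0.22 in scrambled shRNA than in empty vector (adjusted p = 0.0125), and at -0.18 without empty vector replicate 2 (adjusted p = 0.061). KIF11, the motor that pushes spindle poles apart, was at 9.63, 9.66 and 9.69 in knockdown arrays, against 9.52, 9.47 and 9.43 in scrambled shRNA arrays. It was at 9.68, 9.74 and 9.6 in overexpression arrays and 9.79, 9.72 and 9.7 in empty vector arrays. The scrambled shRNA arrays were below all others, by 0.26 against empty vector (adjusted p = 0.005), and the knockdown change of 0.18 did not pass (adjusted p = 0.053). KIF14, KIF20A and KIF23, motors of the central spindle and cytokinesis, and KIF2C, which depolymerises microtubules, passed in none of the 4 comparisons. The 6 kinesins had overexpression changes between -0.13 and 0.12 and knockdown changes between -0.01 and 0.23. The upper limit with knockdown is that of KIF14, which was 0.10 without scrambled shRNA replicate 3.

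Among the spindle-associated genes, ASPM, which focuses spindle poles, was at 10.69, 10.56 and 10.6 in knockdown arrays, against 10.45, 10.4 and 10.34 in scrambled shRNA arrays. It was at 10.7, 10.77 and 10.67 in overexpression arrays and 10.65, 10.75 and 10.7 in empty vector arrays, which overlapped. It rose by 0.22 with knockdown (adjusted p = 0.0291). The rise was not called without knockdown replicate 1 or 3 or scrambled shRNA replicate 2 or 3, with changes of 0.19 to 0.23 (adjusted p of 0.0686 to 0.111). It was lower by 0.30 in scrambled shRNA than in empty vector (adjusted p = 0.00293). TACC3, a microtubule protein of the spindle, was at 9.24, 9.26 and 9.23 in knockdown arrays, against 9.08, 8.88 and 8.99 in scrambled shRNA arrays. It was at 9.41, 9.33 and 9.16 in overexpression arrays and 9.51, 9.26 and 9.33 in empty vector arrays. It was lower by 0.39 in scrambled shRNA than in empty vector (adjusted p = 0.00455), with a knockdown change of 0.26 that did not pass (adjusted p = 0.0571). NUSAP1, a microtubule bundling protein, was at 10.86, 10.8 and 10.92 in scrambled shRNA arrays, against 10.73, 10.55 and 10.64 in empty vector arrays, with 10.86, 10.75 and 10.78 in knockdown and 10.7, 10.82 and 10.77 in overexpression arrays. It was higher by 0.22 in scrambled shRNA than in empty vector (adjusted p = 0.0223), and the knockdown and scrambled shRNA arrays overlapped. That call was lost without empty vector replicate 2 or 3 or scrambled shRNA replicate 3, at 0.18 to 0.22, and the difference was 0.05 with the mean of all probe sets. TPX2, which activates AURKA on the spindle, HMMR and DLGAP5, spindle assembly factors, PRC1 and RACGAP1 of the central spindle, and the microtubule-binding GTSE1 passed in none of the 4 comparisons. The 9 genes had overexpression changes between -0.07 and 0.12 and knockdown changes between -0.07 and 0.26.

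Of the 6 chromosome structure genes, 0 passed in the overexpression or knockdown comparison, against 6.98% and 14.0% of all genes. At an unadjusted p under 0.05 there was 1 with overexpression, against 20.4% of all genes, and 2 with knockdown, against 28.1%. MKI67, the proliferation antigen Ki-67 that coats mitotic chromosomes, was at 9.73, 9.6 and 9.61 in scrambled shRNA arrays, against 9.41, 9.5 and 9.41 in empty vector arrays, and at 9.69, 9.64 and 9.53 in knockdown arrays. The lentiviral arrays were all above the empty vector arrays, and the scrambled shRNA difference was 0.21 (adjusted p = 0.0324). That call was lost without empty vector replicate 1 or 3 or scrambled shRNA replicate 1, at 0.16 to 0.19, and the difference was 0 with the mean of all probe sets. SMC4, a core subunit of condensin, was at 11.04, 10.93 and 10.91 in scrambled shRNA arrays, against 11.11, 11.17 and 11.11 in empty vector arrays, and at 11.11, 11.1 and 11.08 in knockdown arrays. It was lower by 0.17 in scrambled shRNA than in empty vector (adjusted p = 0.0395). The call was lost without any 1 of 5 arrays, the exception being scrambled shRNA replicate 1, at -0.18 to -0.14, and the difference was -0.04 with the mean of all probe sets. NCAPD2, another condensin subunit, had the largest overexpression change, 0.38, with arrays at 8.82, 8.51 and 8.46 under overexpression and at 8.49, 8.05 and 8.11 with empty vector. The spread within groups was wide and the groups overlapped, and the change did not pass (adjusted p = 0.177). It passed in none of the 4 comparisons, and neither did TOP2A, the topoisomerase that untangles chromosomes, or the condensin subunits NCAPG and NCAPH. The 6 genes had overexpression changes between -0.07 and 0.38 and knockdown changes between -0.18 and 0.22. The limits with knockdown are those of NCAPD2 and NCAPH, which were -0.35 and 0.10 without scrambled shRNA replicate 3. Without that array NCAPD2 was also higher in scrambled shRNA than in empty vector, by 0.51 (adjusted p = 0.0268, probe sets fitted one by one), against 0.34 with it.

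The knockdown effect and the overexpression effect share no array, and their difference was tested directly. It passed for 7 of the 51 genes, or 13.7%, against 20.4% of all genes, 12.3% more positive and 8.15% more negative with knockdown. CDC20 (0.50; adjusted p = 0.00173), BUB1 (0.47; adjusted p = 0.00548), CCNB1 (0.36; adjusted p = 0.00665) and ZWINT (0.23; adjusted p = 0.0423) had a more positive effect with knockdown. CDC25C (-0.51; adjusted p = 0.00924), TTK (-0.33; adjusted p = 0.0146) and PTTG1 (-0.32; adjusted p = 0.0171) had a more negative one. The calls for CCNB1, TTK, CDC20 and PTTG1 held in all 19 alternatives. ZWINT was lost in 14 of 19, among them the omission of any 1 array other than scrambled shRNA replicate 3, at 0.21 to 0.25. With the mean of all probe sets CDC25C was at -0.23 and BUB1 at 0.26, and neither passed. Over the 51 genes the 2 effects correlated at Pearson r = -0.57 and Spearman rho = -0.50, and over all genes at -0.55 and -0.54; these are descriptions across genes of the same 12 arrays, not replicates. The effects had the same direction in 14 of 51 genes, or 27.5%, against 30.4% of all genes.

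**Figure D4:**
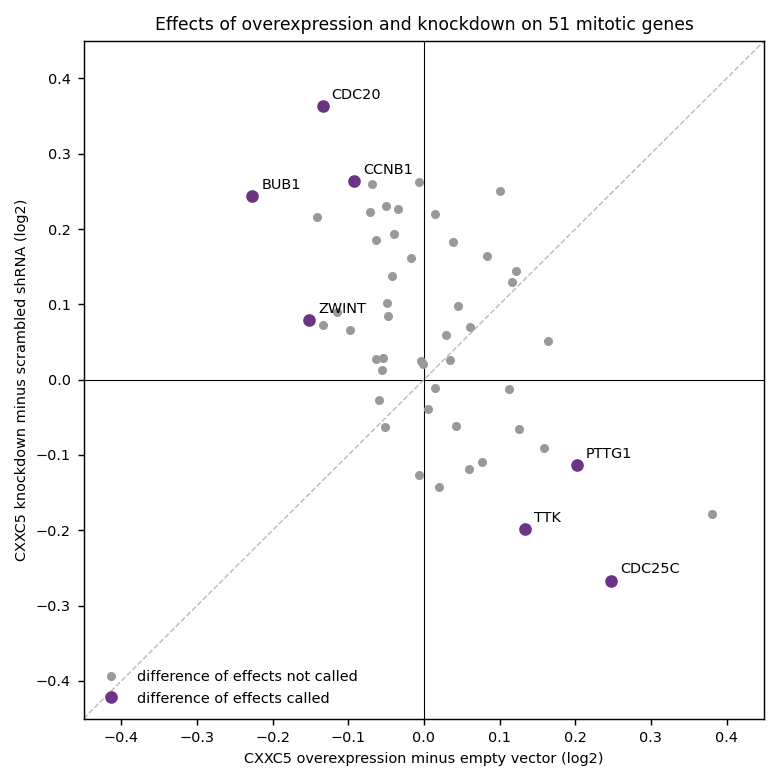
Knockdown effect (vertical axis, log2) against overexpression effect (horizontal axis, log2) for the 51 genes, 1 point a gene. The 7 named purple points passed the test of the difference of effects, and the dashed line marks equal effects; the points run downward, with r = -0.57.

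Of the 51 genes, 19 had other probe sets than the one used, 35 in all, which gave a second reading. None of these is an independent sample of RNA. In the overexpression comparison 0 of 35 passed, against 4.19% of all probe sets. In the knockdown comparison 6 rose and 0 fell, against 9.83% called over all probe sets, and 3 rose without scrambled shRNA replicate 3. Between the controls 1 was higher and 9 lower in scrambled shRNA, against 27.7%, and 1 and 4 without that replicate. In knockdown against empty vector 2 rose and 1 fell, against 3.24%. The difference of effects passed for 5, all more positive with knockdown, against 14.9%. For CDC25C and NUSAP1, whose used probe sets were higher in scrambled shRNA, the other probe sets were lower and did not pass. For BUB3, HMMR, NCAPG, TOP2A and ESPL1, not called there, the other probe sets also had the opposite sign to the used one. The other probe sets of MKI67 were at 0.27, -0.20 and -0.26, against 0.21 for the used one. Those of BUB1 were at 0.33, -0.07, -0.23 and -0.75, against -0.24 for the used one. Those of SMC4 were at 0.15 and -0.10, against -0.17, and those of PLK4 at 0.06 and -0.46, against -0.19. The other 2 probe sets of CDK1 were at 9.51 and 9.79 in scrambled shRNA replicate 3, against 10.52 to 10.71 and 10.64 to 10.83 in the other arrays. Their knockdown changes were 0.35 and 0.29 with that array and 0.01 and -0.02 without it, and the probe set used above gave 0.01. Another probe set of BUB1 rose by 0.73 with knockdown, and its change was 0.53 without that array (adjusted p = 0.12). It lay between 5.36 and 6.8, mostly below the array medians of 6.65 to 6.71. The remaining probe sets of BUB1 not used above had knockdown changes of -0.27, 0.09 and 0.19. The 3' to 5' differences of GAPDH and ACTB were highest in the same array, and their part in these readings was not tested.

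**Figure D5:**
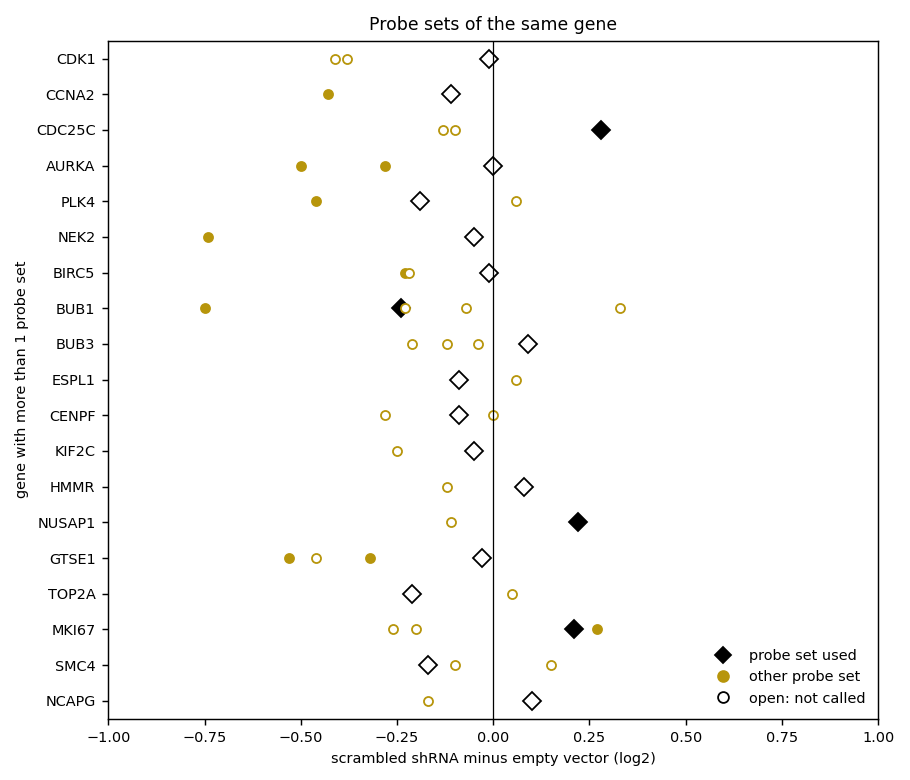
Scrambled shRNA minus empty vector difference (horizontal axis, log2) for every probe set of the 19 genes with more than 1, with a diamond for the probe set used, circles for the others, and filled symbols where the adjusted p was under 0.05. Most circles lie left of 0, with 28 of 35 lower in scrambled shRNA. Those of CDC25C, NUSAP1, BUB3, HMMR, NCAPG, TOP2A and ESPL1 lie on the other side of 0 from their diamonds. MKI67, BUB1, SMC4 and PLK4 have circles on both sides.

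Around the 51 genes, 117 of 152 genes in 6 lists of the same pathways were measured: the APC/C, other kinetochore and checkpoint genes, other kinesins and spindle genes, condensin and cohesin, control of CDK1 entry, and transcriptional regulators. With overexpression 3 rose and 2 fell, or 4.27% of them, against 6.98% of all genes. CDKN1A, the CDK inhibitor p21, was at 8.75, 8.51 and 8.69 in overexpression arrays, against 8.12, 8.02 and 8.2 in empty vector arrays. It was at 8.47, 8.39 and 8.49 in knockdown arrays, against 9.23, 9.39 and 9.25 in scrambled shRNA arrays. Both pairs were apart, and it had the largest rise with overexpression, 0.53. TUBGCP3, a subunit of the gamma-tubulin ring that nucleates microtubules, was at 8.46, 8.02 and 7.9 in overexpression arrays, against 8.77, 8.73 and 8.55 in empty vector arrays. It was at 8.77, 8.57 and 8.52 in knockdown arrays, against 7.75, 7.83 and 7.63 in scrambled shRNA arrays. It had the largest fall with overexpression, -0.56, a call lost without overexpression replicate 2 or 3 or empty vector replicate 1 or 2. With knockdown 11 rose and 7 fell, or 15.4%, against 14.0% of all genes. Here TUBGCP3 changed by 0.88, the repressor E2F5 by 0.58, CDKN1A by -0.84 and the MuvB subunit LIN37 by -0.49. The changes of TUBGCP3, CDKN1A and LIN37 held in all 14 alternatives, while that of E2F5 was lost whichever knockdown array was left out. Between the controls 18 were higher and 28 lower in scrambled shRNA, or 39.3%, against 31.5% of all genes, with CDKN1A at 1.18, CDKN1C at 0.90, TUBGCP3 at -0.95, DEPDC1 at -0.69 and E2F5 at -0.63. The call of DEPDC1 was lost without empty vector replicate 1 or 2 or scrambled shRNA replicate 2 or 3. Those of CDKN1A, CDKN1C, TUBGCP3 and E2F5 held in all 14 alternatives. Knockdown against empty vector gave 2 rises, CDKN1C at 0.58 and CDKN1A at 0.33, and 3 falls, or 4.27%, against 4.54% of all genes. That of CDKN1C held in all 14 alternatives, while that of CDKN1A held in 7 and was lost whichever of the 6 arrays was left out. The difference of effects passed for 25, 17 more positive and 8 more negative with knockdown, or 21.4%, against 20.4% of all genes, with TUBGCP3 at 1.44, CDKN1A at -1.38 and LIN37 at -0.84. E2F5 was at 7.58 in scrambled shRNA replicate 3, against 8.31 and 8.36 in the other scrambled shRNA arrays.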

How the data were processed

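Log2 expression values, 1 per probe set and array, were used as deposited by the authors. They came from Affymetrix Expression Console, per the submitters' processing notes; how it summarised the probes, and its version, are not given in the sources used. The log2 scale was inferred from the range of the deposited values. Of 22277 probe sets, 62 controls were left out, and 19064 had 1 gene symbol, 1043 several and 2108 none in the platform annotation; those with several or none were not named. The probe set with the highest mean stood for each of 11963 genes. Each gene was fitted with limma 3.58.1 (R 4.3.3), lmFit and eBayes, with 1 coefficient per group over 12 arrays and 8 residual degrees of freedom. Two-sided p-values received a Benjamini-Hochberg adjustment over the 11963 genes, and an adjusted p under 0.05 was a call. The members and the lists were chosen with earlier results of these data known. Array values are given for members called in a comparison, up to 10 each way, and for those with the 2 smallest p-values where none passed; a few others (AURKB, CENPA, CDK1, NCAPD2) were chosen after their values were seen. Of the other lists, the largest changes are named. Alternatives were other normalizations, a filter on low values, the mean of all probe sets, 6-array fits, array weights, a trended robust prior, a replicate block and leaving out each array. The fit was tested on simulated data. For arrays the number of arrays limits the precision. Same-numbered arrays did not deviate together in all groups, so replicate numbers were not taken as pairs. Figures were drawn with matplotlib 3.10.9.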

Additional observations from a re-analysis of the deposited data

Results flagged for a closer look

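For 7 of the 51 genes the knockdown effect and the overexpression effect, each against its own control, differed by limma at an adjusted p under 0.05. That is 13.7% of the genes, a lower share than the 20.4% of all genes tested. Knockdown minus overexpression was 0.50 for CDC20, 0.47 for BUB1, 0.36 for CCNB1 and 0.23 for ZWINT, and -0.51 for CDC25C, -0.33 for TTK and -0.32 for PTTG1, in log2 units. Of these, 3 genes passed in the knockdown comparison with the same sign (CDC20, BUB1 and CCNB1) and TTK passed as a fall, and 0 passed in the overexpression comparison.

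Probe sets that were not used for a gene passed where the used probe set did not. In knockdown against scrambled shRNA these were CCNA2 at 0.34, BIRC5 (survivin) at 0.35 and a pair of GTSE1 probe sets at 0.31 and 0.40. In scrambled shRNA against empty vector they were CCNA2 at -0.43, a pair for the kinase AURKA at -0.28 and -0.50, the centriole kinase PLK4 at -0.46, the centrosome kinase NEK2 at -0.74, BIRC5 at -0.23, and the GTSE1 pair at -0.32 and -0.53. Several of these did not pass without scrambled shRNA replicate 3. With knockdown these were both GTSE1 probe sets, at 0.28 (adjusted p = 0.0989) and 0.30 (adjusted p = 0.0965). Between the controls they were PLK4 at -0.40 (adjusted p = 0.0622), NEK2 at -0.43 (adjusted p = 0.104), BIRC5 at -0.25 (adjusted p = 0.0643) and 1 of the GTSE1 pair at -0.28 (adjusted p = 0.0517). In knockdown against empty vector, which compares no scrambled shRNA array, the unused probe sets that passed were PLK4 at -0.55, CENPF at 0.31 and MKI67 at 0.34. The PLK4 probe set lay between 3.34 and 4.19 in the 12 arrays, low beside array medians of 6.65 to 6.71, and whether it was above background was not examined. The GAPDH 3' minus 5' difference was 0.87 in scrambled shRNA replicate 3, against 0.227 to 0.335 in the other arrays, and its part in these probe sets was not tested.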

How the results depend on the processing

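Of 497 single-gene alternatives over 33 results, 394 kept the direction and the side of the threshold, 95 lost the call, 8 gained one and 0 reversed; the cause was not tested. For overexpression, members that rose were 2 after quantile normalization and 1 after median centring. They were also 1 under a filter on the 40% of genes lowest in mean, with a trended robust prior or with array weights. Members that fell were 2, 2 and 1 in the last 3 of these. Of all genes 8.23%, 7.54%, 15.3%, 9.47% and 13% passed either way in these settings, in that order, against 6.98% in the main fit. For knockdown against scrambled shRNA, members that rose were 2 after median centring and 2 in the fit on 6 arrays. Members that fell were 2 under quantile normalization, median centring, the low filter, the robust prior, array weights and the replicate block. Of all genes, 28.8% passed either way under the low filter and 15.8% with the replicate block, both above the main fit's share. In the fit on 6 arrays 8.51% of all genes passed, below that share. Shares in the other settings named for this comparison lay between those of the main fit and the low filter. The members' median was 0.039 after quantile normalization and 0.031 after centring. Between the controls, 3 members were higher with the mean of all probe sets, where 32% of all genes passed either way. The members' median was -0.032 after centring. Knockdown against empty vector gave 2 rises under the low filter, the robust prior and array weights. Of all genes 9.74%, 7.34% and 13.2% passed there, against 4.54% in the main fit. For the difference of effects, 8 were more positive in those same 3 settings, where 37.3%, 23.7% and 26.5% of all genes passed, against 20.4% in the main fit. The members' median was 0.007 after quantile normalization, 0.012 after centring and 0.039 with array weights.

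Genes of the other lists that passed were, for overexpression, 8 after quantile normalization, 9 under the low filter, 8 with the robust prior, 16 with array weights and 3 in the fit on 6 arrays, while of all genes tested in each setting 8.23%, 15.3%, 9.47%, 13% and 4.87% passed. For knockdown they were 28 under the low filter and 3 in the fit on 6 arrays (28.8% and 8.51% of all genes), and for knockdown against empty vector 13 with array weights and 1 in the fit on 6 arrays (13.2% and 2.01% of all genes). For the difference of effects they were 42 under the low filter, 38 with the robust prior and 40 with array weights (37.3%, 23.7% and 26.5% of all genes).

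Leaving out 1 array at a time, members that rose numbered 0 to 1 for overexpression, 2 to 7 for knockdown, 3 to 7 between controls, 0 to 1 for knockdown against empty vector and 3 to 5 for the difference of effects. Those that fell numbered 0 to 0, 0 to 0, 6 to 13, 0 to 0 and 3 to 4 in the same order. The medians ran between -0.023 and 0.011, 0.037 and 0.089, -0.08 and -0.044, -0.01 and 0.02, and 0.033 and 0.094. Genes of the other lists numbered 1 to 5, 6 to 15, 24 to 38, 1 to 4 and 13 to 24. Of all genes 3.18% to 5.07%, 9.48% to 12.8%, 21.7% to 30%, 1.03% to 4.42% and 15.6% to 20.2% passed in these fits.

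With a replicate block, though the numbers do not pair the samples, 0 members passed for overexpression, 4 rose and 2 fell for knockdown, 7 were higher and 12 lower between the controls, 1 rose for knockdown against empty vector, and 4 were more positive and 4 more negative in the difference of effects. Of all genes 7.33%, 15.8%, 34.3%, 5.41% and 22% passed with that block, in the same order.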
